A study of Mus musculus with 72 samples.

Results

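The 9 microRNA genes Mir219a-2, Mir219a-1, Mir138-2, Mir9-1, Mir9-2, Mir497, Mir128-2, Mir181c and Mir488 were followed through learning, memory retrieval and the daily cycle in the mouse hippocampus. They are 9 of 18820 genes that the array measured with a probe set of their own, and 297 further microRNA genes were measured in the same way. The 9 were chosen by measured values: most had lower signals 30 min after learning or retrieval, or in the dark phase in untrained mice. Every comparison that includes FC30, RT30, CC30, CC4 or CC12 is therefore a description of the choice, and the calls counted in it are no test of the 9. The trained mice of FC4, FC12 and FC24 were taken as having no part in the choice, and members are tested in them alone. Since members and tests were chosen with earlier results of these data known, these tests are not an independent check.

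MicroRNAs are short RNAs that pair with messenger RNAs and lower their translation or stability. A hairpin in a longer primary transcript is cut out by Drosha and Dgcr8, trimmed by Dicer1 to its mature arms and loaded onto an Argonaute protein. Target choice rests mainly on the seed, bases 2 to 8 of the mature arm. miR-9 and miR-128 are abundant in neurons and neural progenitors, miR-138 is known in rat neurons for limiting the size of dendritic spines, and miR-219a for promoting the maturation of oligodendrocytes. In neurons of the mouse clock nucleus, miR-219a is also known to follow the time of day.

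Contextual fear conditioning pairs a chamber with a foot shock, here a single one of 2 s at 1.5 mA given at ZT 3, which is 3 h after lights on. The mice were male C57BL/6J, 2 months old, housed alone under 12 h of light and 12 h of dark and handled before the experiment, with 9 mice and 9 arrays in each of 8 groups. The groups FC30, FC4, FC12 and FC24 hold trained mice taken 30 min and 4, 12 and 24 h after the shock, and RT30 mice were taken 30 min after a 5 min return to the chamber at 24 h. CC30, CC4 and CC12 were handled mice without training, dissected at the clock times of FC30, FC4 and FC12, so that FC12 and CC12 fall in the dark phase. FC24 and RT30 were set against CC30, the untrained group of that time of day. No group received the chamber or the shock alone.

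The mature arms below show which members can act on the same targets, with the seed in capitals, 5′ to 3′. Sequences and positions are from RefSeq on GRCm38.p6, in which all 9 members were matched.
miR-219a-5p (Mir219a-2 and Mir219a-1): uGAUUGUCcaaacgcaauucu
miR-9-5p (Mir9-1 and Mir9-2): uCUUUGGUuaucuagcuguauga
miR-9-3p (Mir9-1 and Mir9-2): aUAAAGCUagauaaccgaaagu
miR-138-5p (Mir138-2): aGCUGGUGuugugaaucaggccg
miR-497a-5p (Mir497): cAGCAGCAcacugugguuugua
miR-128-3p (Mir128-2): uCACAGUGaaccggucucuuu
miR-181c-5p (Mir181c): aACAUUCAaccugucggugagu
miR-488-3p (Mir488): uUGAAAGGcuguuucuugguc

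Among the members, seeds are shared within the Mir219a pair and within the Mir9 pair alone. Of other genes measured on the array, Mir9-3 carries the seeds of miR-9, Mir128-1 that of miR-128-3p and Mir138-1 that of miR-138-5p. The seed of miR-181c-5p recurs in 5 measured genes of the Mir181 family. That of miR-497a-5p recurs in 6 measured genes, namely Mir15a, Mir15b, Mir16-1, Mir16-2, Mir195a and Mir322.

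Outside the mature arms the hairpins differ, which matters here because the array may have read precursors as well as mature forms: the RNA was not selected for small species. The hairpins of the pairs are shown with their mature arms in capitals.
Mir219a-2, chr2:29845631-29845727, minus strand: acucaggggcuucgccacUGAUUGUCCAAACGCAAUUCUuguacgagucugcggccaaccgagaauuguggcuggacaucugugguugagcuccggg
Mir219a-1, chr17:34024983-34025092, minus strand: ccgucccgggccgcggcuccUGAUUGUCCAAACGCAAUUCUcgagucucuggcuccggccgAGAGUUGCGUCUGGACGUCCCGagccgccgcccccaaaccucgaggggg
Mir9-1, chr3:88215598-88215686, plus strand: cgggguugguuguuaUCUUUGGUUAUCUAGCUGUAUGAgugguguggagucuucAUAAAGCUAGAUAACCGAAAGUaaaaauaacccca
Mir9-2, chr13:83738814-83738885, plus strand: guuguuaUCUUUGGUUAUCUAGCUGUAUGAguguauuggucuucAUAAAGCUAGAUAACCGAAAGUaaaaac
In a global alignment the Mir219a-2 and Mir219a-1 hairpins were identical at 62.5% of 112 aligned positions, and those of Mir9-1 and Mir9-2 at 78.7% of 89.

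The other members lie at chr8:94324311-94324381 on the plus strand (Mir138-2), chr11:70234717-70234800 on the plus strand (Mir497), chr9:112118636-112118711 on the minus strand (Mir128-2) and chr1:158505625-158505733 on the plus strand (Mir488). The 5p arm of Mir181c lies at chr8:84178924-84178945 on the minus strand. In the annotation, protein-coding genes span 3 members on the same strand. These are Arpp21 over Mir128-2, Nup93, a nuclear pore subunit, over Mir138-2, and Astn1, a neuronal adhesion protein of cell migration, over Mir488. Mir9-1 and Mir9-2 lie within the long noncoding RNAs Gm3764 and C130071C03Rik. Mir219a-2 lies opposite to Cercam and to the microRNA gene Mir219b, Mir219a-1 opposite to Mir219c, and Mir497 opposite to Mir497b. Whether the array separates the strands at these loci was not tested.

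The values below are the log2 signals that the authors summarised with RMA, after the first principal component over all 72 arrays (17.4% of the variance) had been subtracted and each probe set's mean restored. A difference of 1 would be a doubling, and each member has 1 probe set. A probe set is called at an adjusted p under 0.1 in limma (Benjamini-Hochberg over all 35556 probe sets, two-sided). Array medians lay between 5.82 and 5.88. Neuronal markers of the hippocampus averaged 10.85 to 10.90 in the 8 groups, and Arc, Fos and Egr2, genes induced by neuronal activity, were all called higher in FC30 and in RT30 against CC30. Choroid plexus markers, which mark tissue next to the hippocampus, had mean levels from 5.16 to 7.81 among single mice. On the first 2 components 6 arrays stood apart from their groups: CC30 replicate 3, FC30 replicate 4, FC24 replicate 4, FC12 replicate 2, CC12 replicate 2 and CC4 replicate 8.

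Mir219a-2 had the widest span of the 9 genes, and its signal was low in 4 groups. The lowest, median and highest signals were 5.39, 5.61 and 5.89 in FC30 mice and 5.38, 5.52 and 5.85 in RT30 mice, against 5.85, 5.98 and 6.34 in CC30 mice. Of the FC30 mice 7, and of the RT30 mice 8, lay below every CC30 mouse. In the dark phase it stood at 5.26, 5.61 and 5.67 in CC12 mice, below every mouse of CC4 (5.79, 5.97 and 6.36) and of CC30.

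The log2 fold change of Mir219a-2 was -0.39 ± 0.0835 (SE, n = 9 each) for FC30 and -0.49 ± 0.0742 for RT30 against CC30. It was -0.48 ± 0.0713 for CC12 against CC30 and -0.51 ± 0.0749 for CC12 against CC4, and thus similar in size to the retrieval difference. At 24 h without retrieval the signal lay close to that of untrained mice, with -0.07 ± 0.0903 for FC24 against CC30. RT30 mice, 30 min after the return to the chamber, were lower than FC24 mice by -0.42 ± 0.0857. In the order of group means (FC4, CC4, CC30, FC24, FC12, FC30, CC12 and RT30, from 6.09 down to 5.54) a gap wider than the spread of its neighbours, 0.236 against a pooled SD of 0.183, lay between FC24 and FC12. The other neighbours differed by less than their pooled SD.

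**Figure D1:**
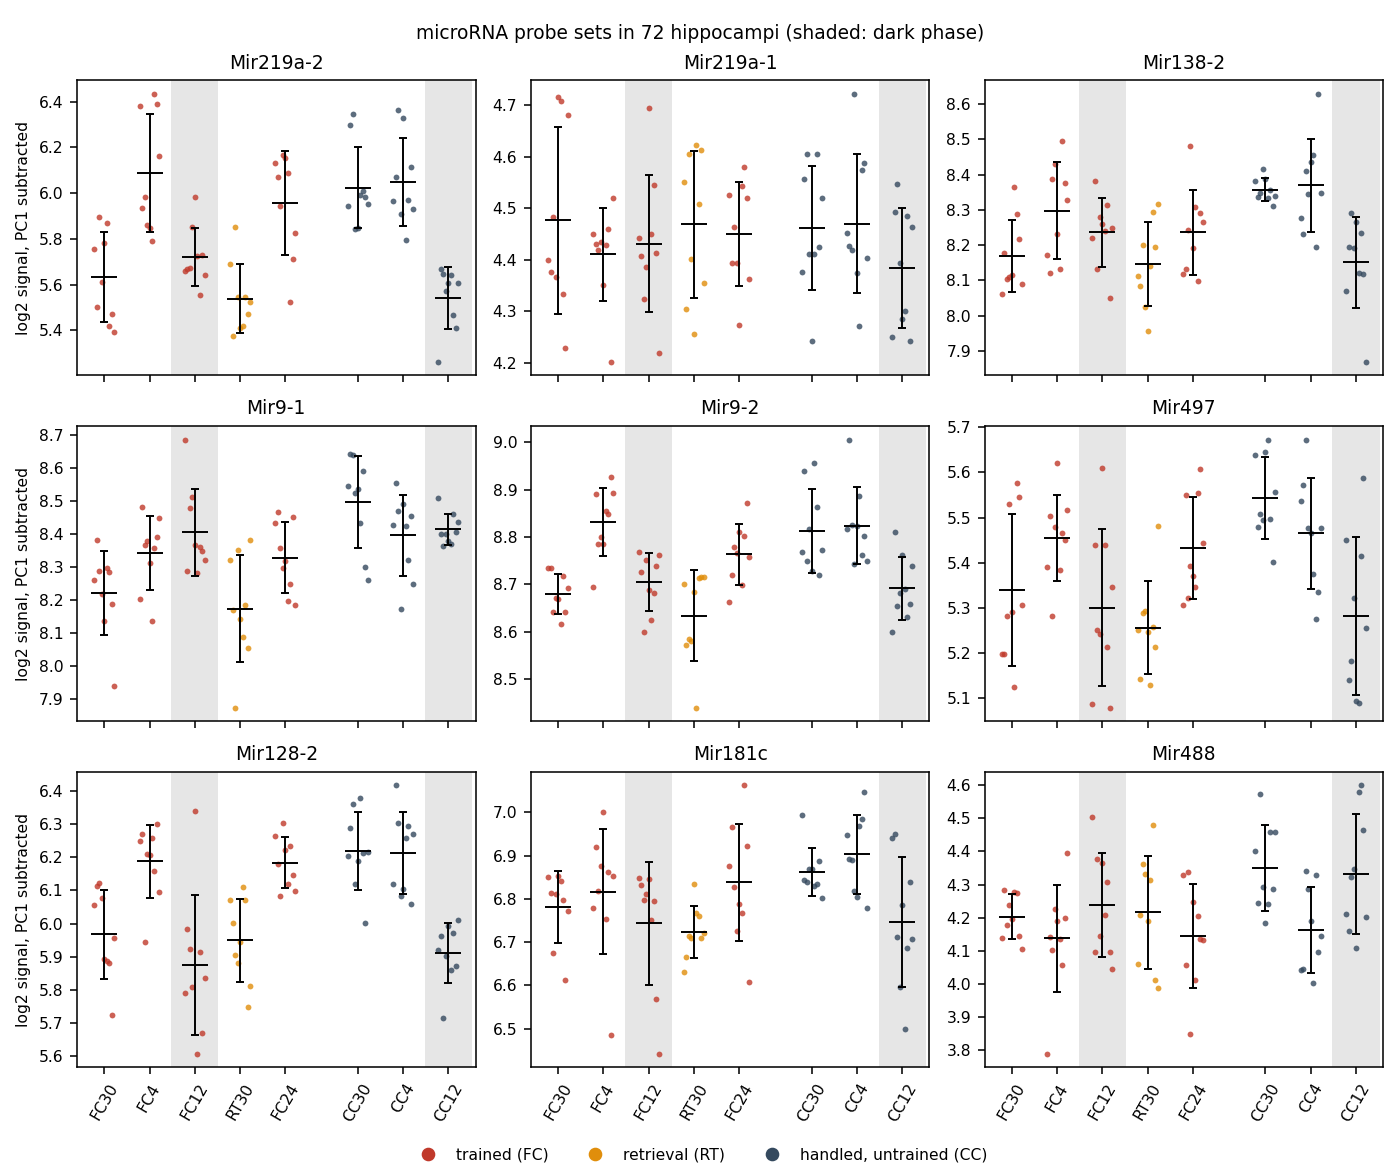
Log2 signal with PC1 subtracted (vertical axis) of the 9 microRNA probe sets in 8 groups of 9 mice. Each point is a mouse, the bar is the group mean and the whiskers are 1 SD, and the dark-phase groups are shaded. For Mir219a-2, FC30, FC12, RT30 and CC12 sit low (means from 5.54 to 5.72), and FC4, FC24, CC30 and CC4 high (5.96 to 6.09).

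Mir219a-1 carries the same mature 5p arm and showed no such order. Its lowest, median and highest signals were 4.23, 4.40 and 4.71 in FC30 mice, 4.26, 4.51 and 4.62 in RT30 mice and 4.24, 4.39 and 4.55 in CC12 mice, against 4.24, 4.42 and 4.61 in CC30 mice. The 4 groups overlapped almost completely. The log2 fold changes were 0.02 ± 0.069 for FC30, 0.01 ± 0.0599 for RT30 and -0.08 ± 0.0544 for CC12 against CC30. Although listed with the others, this gene was not lower after learning or retrieval on the array. Its signals exceeded those of only 30% of all probe sets, and detection above background was not analysed here. Differences near 0 at this level do not show that the gene behaves unlike Mir219a-2.

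Mir138-2 was low in FC30, RT30 and CC12 and most even in CC30. Its lowest, median and highest signals were 8.06, 8.11 and 8.36 in FC30 mice, 7.96, 8.14 and 8.32 in RT30 mice and 7.87, 8.19 and 8.29 in CC12 mice, against 8.31, 8.35 and 8.42 in CC30 mice. All CC12 mice lay below all CC30 mice, and 8 of 9 mice in each of FC30 and RT30 did. In the deposited values, before the component was subtracted, 6 of 9 CC12 mice did, since CC30 replicate 3, an array that stood apart, was at 8.24. Relative to CC30 its log2 fold change was -0.19 ± 0.0373 for FC30, -0.21 ± 0.0418 for RT30 and -0.21 ± 0.0442 for CC12. FC24 mice lay between, with -0.12 ± 0.0417.

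Both Mir9 genes were lower after learning and after retrieval than in CC30, and they were not compared with each other in untrained mice. Mir9-1 had signals of 7.94, 8.26 and 8.38 in FC30 mice and 7.87, 8.17 and 8.38 in RT30 mice, against 8.26, 8.54 and 8.64 in CC30 mice (lowest, median and highest). All FC30 and RT30 mice lay below the CC30 mean, with some overlap of single mice. Relative to CC30, Mir9-1 had a log2 fold change of -0.27 ± 0.0605 in FC30 and -0.32 ± 0.068 in RT30, but 0.02 ± 0.0447 for CC12 against CC4 and -0.08 ± 0.0483 for CC12 against CC30. CC30 had its highest group mean. FC24 mice (-0.17 ± 0.0566) and untrained CC4 mice (-0.10 ± 0.0602) also lay below CC30. RT30 against FC24 gave -0.15 ± 0.0623 and was not called.

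Mir9-2 had signals of 8.62, 8.67 and 8.73 in FC30 mice and 8.44, 8.68 and 8.72 in RT30 mice, against 8.72, 8.77 and 8.96 in CC30 mice. Every RT30 mouse lay below every CC30 mouse, and 7 of 9 FC30 mice did. In the deposited values 4 of 9 RT30 mice did, with CC30 replicate 3 again the lowest of its group, at 8.69. In CC12 the signals were 8.60, 8.68 and 8.81, against 8.74, 8.82 and 9.01 in CC4, where 7 of 9 CC12 mice lay below all CC4 mice. On the log2 scale the differences were -0.13 ± 0.0348 for FC30 and -0.18 ± 0.0439 for RT30 against CC30, -0.13 ± 0.0373 for CC12 against CC4 and -0.12 ± 0.0381 for CC12 against CC30.

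Mir128-2 resembled Mir219a-2, with low signals in FC30, RT30, FC12 and CC12. The lowest, median and highest were 5.73, 5.96 and 6.12 in FC30 mice and 5.75, 5.94 and 6.11 in RT30 mice, against 6.00, 6.21 and 6.38 in CC30 mice. In CC12 mice they were 5.72, 5.92 and 6.01, below every CC4 mouse (6.06, 6.26 and 6.42). Its log2 fold changes were -0.25 ± 0.0573 for FC30 and -0.27 ± 0.0554 for RT30 against CC30, -0.31 ± 0.0485 for CC12 against CC30 and -0.30 ± 0.0508 for CC12 against CC4. In the order of its group means, CC30, CC4, FC4 and FC24 (6.22 to 6.18) were followed by a gap of 0.216, against a pooled SD of 0.11, and then by FC30, RT30, CC12 and FC12 (5.97 to 5.88).

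Mir497 belongs by its seed to the miR-15 and miR-16 family, known for holding back the cell cycle. Its signals were 5.12, 5.29 and 5.58 in FC30 mice and 5.13, 5.25 and 5.48 in RT30 mice, against 5.40, 5.51 and 5.67 in CC30 mice. All RT30 mice except replicate 9, at 5.48, lay below every CC30 mouse. The log2 fold changes against CC30 were -0.20 ± 0.0616 for FC30, -0.29 ± 0.0459 for RT30 and -0.26 ± 0.0632 for CC12. Against CC4, Mir497 had -0.18 ± 0.0685 in CC12, which was not called. Its neighbour on the chromosome, Mir195a, of the same seed, had a log2 fold change of 0.11 ± 0.0568 for RT30 against CC30 and was not called.

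Mir181c had narrow ranges and small differences. Its signals were 6.61, 6.81 and 6.85 in FC30 mice and 6.63, 6.71 and 6.84 in RT30 mice, against 6.80, 6.84 and 6.99 in CC30 mice. RT30 mice lay below every CC30 mouse in 8 of 9 cases and FC30 mice in 4 of 9. The log2 fold changes were -0.08 ± 0.0353 for FC30 and -0.14 ± 0.0307 for RT30 against CC30. For CC12 they were -0.16 ± 0.057 against CC4 and -0.12 ± 0.0519 against CC30, and neither was called. Mir181d, the neighbour with the same seed, had 0.02 ± 0.0512 for RT30 against CC30.

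Mir488 followed another order, with its highest means in CC30 and CC12. Its signals were 4.11, 4.20 and 4.28 in FC30 mice and 3.99, 4.21 and 4.48 in RT30 mice, against 4.18, 4.29 and 4.57 in CC30 mice, with wide overlap. The log2 fold changes against CC30 were -0.15 ± 0.048 for FC30 and -0.13 ± 0.0682 for RT30, but also -0.20 ± 0.065 for FC24 and -0.18 ± 0.0594 for untrained CC4 mice. In the dark its mean was higher, not lower, than in CC4, by 0.17 ± 0.0711 for CC12 against CC4, which was not called. Against CC30 the CC12 difference was -0.02 ± 0.0706. Signals of this gene exceeded those of only 26.1% of all probe sets.

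Taking the 9 as a list, 3 were called lower in FC30 against CC30 (Mir219a-2, Mir138-2 and Mir9-1), where 0.0703% of all probe sets were, with a median log2 fold change of -0.19 beside -0.00172 over all. Just outside the threshold was Mir128-2. In RT30 against CC30 there were 6 (those 3 with Mir497, Mir128-2 and, just inside, Mir181c), where 0.0928% of all probe sets were called lower, with a median of -0.21 beside -0.00216. Without the arrays that stood apart, the counts were 0 in FC30 (CC30 replicate 3 and FC30 replicate 4 left out) and 3 in RT30 (CC30 replicate 3 left out). Mir9-2, not called in RT30, was the member without overlap there, which 0.0253% of all probe sets showed in that direction. Since these comparisons chose the genes, nothing is read from the counts.

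Choroid plexus markers had their lowest mean level in CC30, and FC30 and other groups lay above it. Their mean level was 6.43 in FC30 mice (5.76 to 7.22) and 5.94 in RT30 mice (5.54 to 6.68), against 5.89 in CC30 mice (5.46 to 7.04), and 0 of 5 were called by limma in either (3 in FC30 and 0 in RT30 had an unadjusted p under 0.05, all 3 higher). Their median log2 fold change was 0.35 for FC30 and 0.02 for RT30. In CC12 mice their level was 6.46 (5.70 to 7.81), in untrained CC4 mice 6.35 (5.67 to 7.44) and in FC24 mice 6.17 (5.63 to 7.51). Their part in the microRNA differences was not tested.

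In the dark phase of untrained mice 4 members were called lower in CC12 against CC30 (Mir219a-2, Mir138-2, Mir497 and Mir128-2), with 1.44% of all probe sets called lower. Against CC4 there were also 4 (Mir219a-2, Mir138-2, Mir9-2 and Mir128-2), with 2.47% called lower. Groups did not overlap for Mir219a-2 and Mir138-2 against CC30 (0.149% of all probe sets in that direction) and for Mir219a-2 and Mir128-2 against CC4 (0.318%). Between the 2 light-phase groups, CC4 against CC30, 0 members were called by limma or the methods' t-test (0.0478% of all probe sets were called lower), and Mir488 alone had an unadjusted p under 0.05.

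Other comparisons of trained mice gave few calls. RT30 against FC24 gave 2 members called lower, Mir219a-2 and Mir128-2 (-0.23 ± 0.0485), with 0.0309% of all probe sets called lower. The count was 0 with 2 components subtracted, with the methods' t-test after Benjamini-Hochberg adjustment, with replicate numbers as a block and without FC24 replicate 4. RT30 against FC30, FC24 against CC30, FC4 against CC4 and FC12 against CC12 gave 0 members by limma and by the methods' t-test after Benjamini-Hochberg adjustment, and in each 0% of all probe sets were called lower. The number of members at an unadjusted p under 0.05 was 0, 4, 0 and 1 in these comparisons. The 1 was Mir219a-2, which was higher in FC12 than in CC12 by 0.18 ± 0.0596, with 9 of 9 FC12 mice above the CC12 mean.

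**Figure D2:**
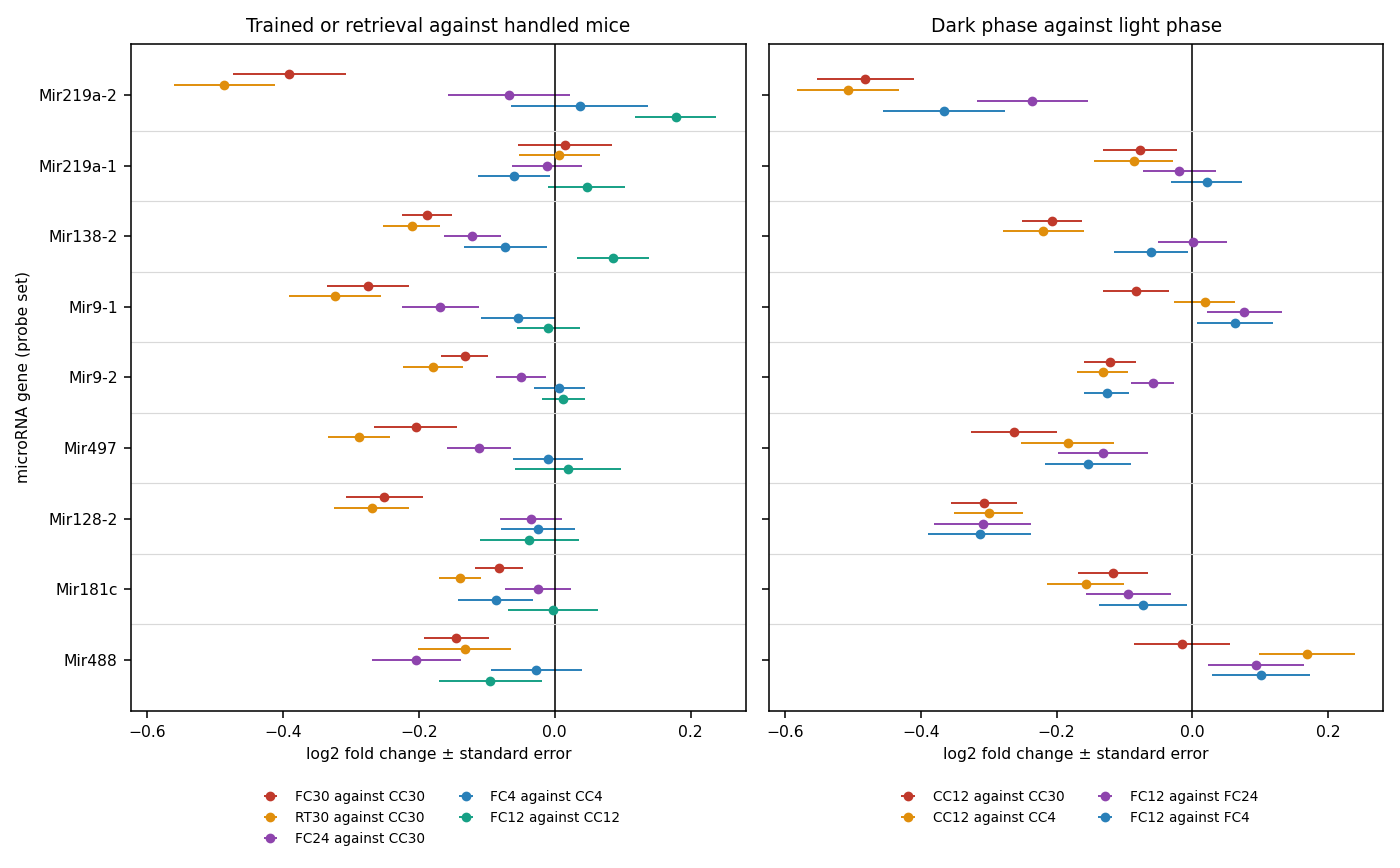
Log2 fold change with its standard error (horizontal axis) of the 9 probe sets, trained or retrieval mice against handled mice on the left and dark-phase against light-phase mice on the right, with 9 mice per group. Mir219a-2 and Mir128-2 lie at -0.24 to -0.51 in all 4 dark-phase comparisons, and the FC4 and FC12 comparisons on the left lie near 0 for most members. In FC24 against CC30 all 9 lie below 0, from -0.01 to -0.20.

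Whether the dark-phase difference also stood in trained mice was tested in FC12, FC4 and FC24, whose arrays were taken as unused by the choice. In trained mice the time of day and the hours since training cannot be told apart. Mir219a-2, Mir128-2 and Mir9-2 fell in FC12 against FC4, and 6 members did not pass the test. This is 3 of 9 called lower, where 1.71% of all probe sets were, with a median log2 fold change of -0.07 beside 0.00384 over all.

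Mir219a-2 had signals of 5.56, 5.67 and 5.98 in FC12 mice, against 5.79, 5.98 and 6.44 in FC4 mice (lowest, median and highest). Of 9 FC12 mice, 7 lay below every FC4 mouse and all below the FC4 mean. Its log2 fold change was -0.37 ± 0.0903 (95% interval -0.56 to -0.18, limma adjusted p = 0.0378).

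Mir128-2 had signals of 5.61, 5.84 and 6.34 in FC12 mice, against 5.94, 6.21 and 6.30 in FC4 mice. Replicate 5 of FC12, at 6.34, lay above every FC4 mouse, while 7 FC12 mice lay below all of them. Its log2 fold change was -0.31 ± 0.0758 (95% interval -0.47 to -0.15, limma adjusted p = 0.0347). The same replicate also had the highest Mir219a-2 signal of FC12, at 5.98.

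Mir9-2 had signals of 8.60, 8.73 and 8.77 in FC12 mice, against 8.70, 8.85 and 8.93 in FC4 mice. All FC12 mice lay below the FC4 mean and 4 below every FC4 mouse. The log2 fold change was small, -0.13 ± 0.0333 (95% interval -0.20 to -0.06, limma adjusted p = 0.0542). With replicate numbers as a block, Mir219a-2 (adjusted p = 0.131) and Mir9-2 (0.121) were no longer called, and with the local false discovery rates of the methods none of the 3 was (0.416 for Mir219a-2, 0.375 for Mir128-2 and 0.331 for Mir9-2).

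The members that did not pass had intervals that include or come near 0. Mir497 had -0.15 (95% interval -0.29 to -0.02, limma adjusted p = 0.242) and Mir138-2 -0.06 (-0.18 to 0.05). Mir9-1 had 0.06 (-0.05 to 0.18), Mir219a-1 0.02 (-0.09 to 0.13), Mir181c -0.07 (-0.21 to 0.06) and Mir488 0.10 (-0.05 to 0.25).

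Against FC24, the trained mice at ZT 3 of the next day, Mir128-2 alone fell in FC12, where 1.08% of all probe sets were called lower. Its signals were 5.61, 5.84 and 6.34 in FC12 mice, against 6.08, 6.18 and 6.31 in FC24 mice, and 8 of 9 FC12 mice lay below every FC24 mouse. The log2 fold change was -0.31 ± 0.0717 (95% interval -0.46 to -0.16, limma adjusted p = 0.0296, local false discovery rate 0.107). Mir219a-2 had -0.24 (95% interval -0.41 to -0.07, limma adjusted p = 0.18, or 0.0867 with the replicate block). Mir138-2 had 0.00 (-0.11 to 0.11). Between the 2 light-phase groups of trained mice, FC24 against FC4, limma called 0 members, as did the methods' t-test, and 0 had an unadjusted p under 0.05, while 0.0787% of all probe sets were called lower.

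**Figure D3:**
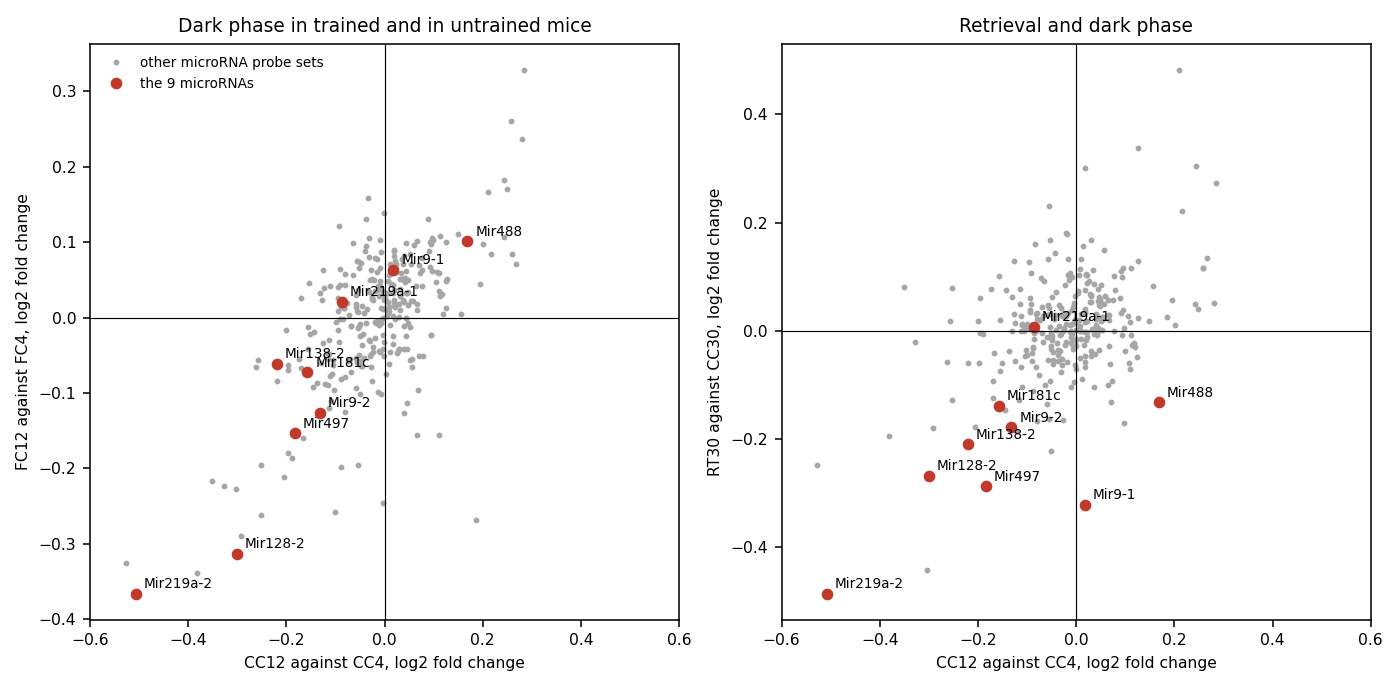
Log2 fold changes of microRNA probe sets in pairs of comparisons that share no array, FC12 against FC4 (left) and RT30 against CC30 (right), each against CC12 against CC4 on the horizontal axis. Red points are the 9 members and grey points the 301 other microRNA probe sets. Mir219a-2 (-0.37 and -0.51 on the left) and Mir128-2 (-0.31 and -0.30) lie low in both, and Mir9-1 lies low for RT30 (-0.32) and near 0 in both dark-phase comparisons.

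Genes of the same mature microRNA are set side by side here in trained mice, as a description with no test, since the pairs were chosen after their values were seen. The difference between the log2 signals of Mir219a-2 and Mir219a-1 within a mouse was 1.29 ± 0.131 in FC12 and 1.68 ± 0.285 in FC4 (SD, n = 9 each). For Mir9-2 and Mir9-1 it was 0.30 ± 0.129 in FC12 and 0.49 ± 0.096 in FC4, and for Mir128-2 and Mir128-1 it was -2.16 ± 0.205 in FC12 and -1.91 ± 0.15 in FC4. Mir9-3, which carries the same miR-9 seeds, was called lower in FC12 against FC4, as Mir9-2 was.

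Among 14 probe sets of paralogues and cluster partners, 1 was called lower in FC12 against FC4 (7.14%, beside 1.71% of all probe sets) and 0 higher, with a median of 0.02. The 1 was Mir9-3, with signals of 5.58, 5.68 and 5.92 in FC12 mice, against 5.73, 5.84 and 6.00 in FC4 mice (log2 fold change -0.16 ± 0.0437, limma adjusted p = 0.0635). In FC12 against FC24, 0 of the 14 were called by limma in either direction, and 2 had an unadjusted p under 0.05, both lower. Mir128-1 had -0.07 ± 0.0485 in FC12 against FC4. In untrained mice Mir128-1 was lower in CC12 than in CC4, by -0.26 ± 0.0609, much like Mir128-2.

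Of 301 other microRNA probe sets 6 were called lower and 4 higher in FC12 against FC4 (1.99% and 1.33%, beside 1.71% and 2.51% of all probe sets), with a median of 0.01. Lowest was Mir551b (-0.34 ± 0.0707, limma adjusted p = 0.0145) and highest Mir30b (0.33 ± 0.0902, adjusted p = 0.0651), while Mir218-2 had -0.33 ± 0.0842 (adjusted p = 0.0478). In FC12 against FC24, 3 were called lower, with Mir30a lowest at -0.25 ± 0.0723 (adjusted p = 0.0852), and 0 higher. Dark-phase calls in untrained mice were not confined to the 9. Of the 301, 11 were called lower and 9 higher in CC12 against CC4 (2.47% of all probe sets were called lower), the lowest at -0.53. Against CC30, 4 were called lower and 5 higher (1.44% of all were called lower). Mir26a-1, not among the 9, was lower by -0.44 ± 0.0919 in RT30 against CC30 and by -0.30 ± 0.0795 in CC12 against CC4.

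Host genes were set beside the microRNAs they span, without a test of the difference. Arpp21, a cAMP-regulated phosphoprotein of neurons that holds Mir128-2 in an intron, had signals of 9.81, 9.93 and 9.99 in FC12 mice, against 9.95, 10.03 and 10.21 in FC24 mice. It fell by 0.12 on the log2 scale (SE 0.0364, limma adjusted p = 0.0949), beside -0.31 for Mir128-2. Against FC4 it had -0.10 ± 0.0374 (adjusted p = 0.18) and after retrieval -0.08 ± 0.04. Nup93 had 0.05 ± 0.0334 and Astn1 -0.05 ± 0.0252 in FC12 against FC4, and neither was called there or in FC12 against FC24, where Nup93 had 0.08 ± 0.0261 beside 0.00 for Mir138-2. Cercam, opposite to Mir219a-2, had -0.04 ± 0.0399 and -0.02 ± 0.04 on its 2 probe sets in FC12 against FC4.

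**Figure D4:**
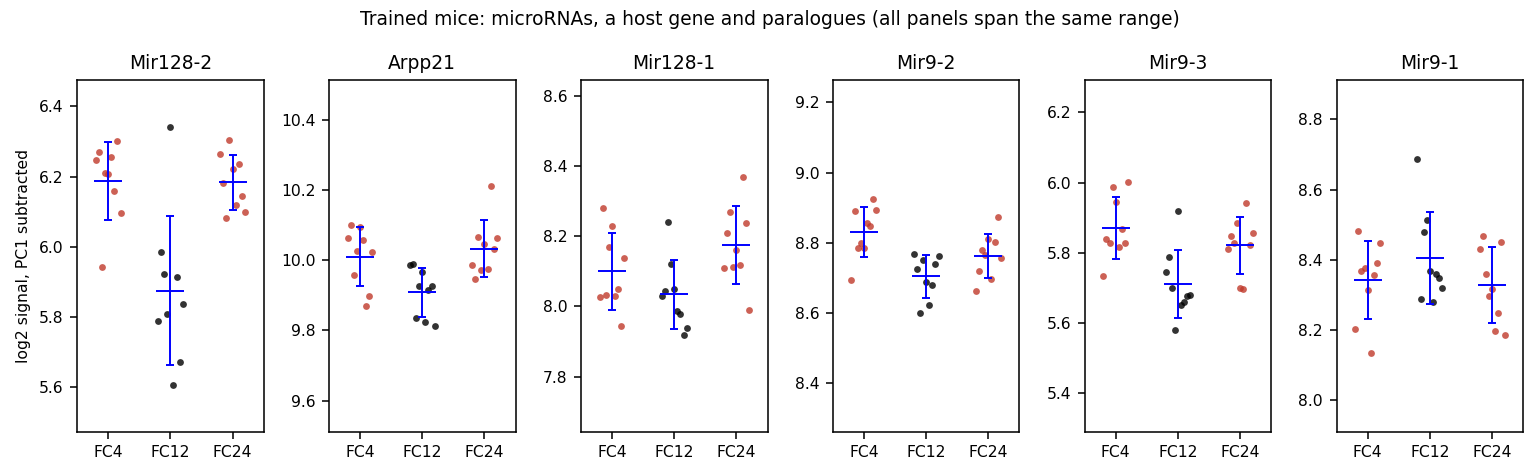
Log2 signal with PC1 subtracted (vertical axis, each panel spans the same range) in trained mice at 4, 12 and 24 h after training, 9 mice each. Points are mice, bars means and whiskers 1 SD. Mir128-2 averages 5.88 at 12 h, beside 6.19 at 4 h and 6.18 at 24 h, while its host gene Arpp21 averages 9.91, 10.01 and 10.03 in the order FC12, FC4 and FC24.

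The calls among genes that make or carry microRNAs were upward in trained mice in the dark phase, and mostly upward in untrained mice. Of 28 probe sets, 4 were called higher and 0 lower in FC12 against FC4, with 2.51% of all probe sets called higher. Ago3, an Argonaute protein, rose by 0.17 ± 0.0319 (limma adjusted p = 0.00628), and Srrt, which links capped transcripts to Drosha processing, by 0.14 ± 0.0302 (adjusted p = 0.0188). Dgcr8, the partner of Drosha, rose by 0.13 ± 0.0356 (adjusted p = 0.0671). Ago2, the slicing Argonaute, rose by 0.11 ± 0.0324 on 1 of its 2 probe sets (adjusted p = 0.0728). Dicer1 had -0.05 ± 0.0259 and was not called.

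In FC12 against FC24, 2 of the 28 were called higher and 0 lower, with 2.11% of all probe sets called higher. Dgcr8 rose by 0.13 ± 0.0315 (limma adjusted p = 0.0336) and Ago3 by 0.10 ± 0.0241 (adjusted p = 0.0302). In untrained mice 3 of the 28 were called higher and 0 lower in CC12 against CC4, where 2.47% of all probe sets were called lower. In CC12 against CC30, 2 were called higher and 1 lower, with 1.44% of all probe sets called lower. In FC30 and in RT30 against CC30, 0 of 28 were called by limma, and 4 and 0 had an unadjusted p under 0.05.

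Known targets, described in mouse, rat or human cells, showed few differences. For miR-219a, 0 of 7 were called by limma in FC12 against FC4 or FC24, and 1 in each had an unadjusted p under 0.05. The same held in FC30 and in RT30 against CC30, with 0 of 7 called and 1 in each, a lower one, at an unadjusted p under 0.05. Camk2g, a calcium-dependent kinase subunit, had -0.06 ± 0.0259 in FC12 against FC4 (limma adjusted p = 0.231). For miR-9, 1 of 6 was called in FC12 against FC24, where 2.11% of all probe sets were called higher. This was Hes1, a repressor of neuronal differentiation, which rose by 0.24 ± 0.0368 (limma adjusted p = 0.0017). Neither Mir9 member was called there, with 0.08 ± 0.0549 for Mir9-1 and -0.06 ± 0.0315 for Mir9-2. For miR-128, 1 of 2 was called in FC12 against FC4, where 2.51% of all probe sets were called higher. This was Bmi1, a Polycomb protein of progenitor cells, which rose by 0.13 ± 0.0381 (limma adjusted p = 0.092). Lypla1, the target of miR-138, was not called in either. Only the RNA level of these genes was analysed here.

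Since miR-219a is known from oligodendrocytes, markers of that cell type were set beside Mir219a-2. In a whole-tissue sample fewer cells of a type and less RNA per cell cannot be told apart. The mean level over 15 oligodendrocyte probe sets was 8.44 in FC12 mice (8.34 to 8.54), against 8.45 in FC4 mice (8.35 to 8.63), and 8.35 in CC12 mice (8.13 to 8.51), against 8.44 in CC4 mice (8.31 to 8.52). In FC12 against FC4, Opalin, a protein of mature myelin-forming cells, fell by 0.52 on the log2 scale (SE 0.071, limma adjusted p = 0.000634) and Cldn11, a myelin tight junction protein, rose by 0.16 ± 0.0486 (adjusted p = 0.0877). The other 13 were not called, and the median was 0.01. In CC12 against CC30, 2 of 15 were called lower, Opalin (-0.62 ± 0.0691) and Olig2 (-0.22 ± 0.0483), 13 lay below 0 and the median was -0.09. In CC12 against CC4, Opalin alone was called (-0.70 ± 0.0734), 11 lay below 0 and the median was -0.06. In RT30 and in FC30 against CC30, 0 of 15 were called by limma, and 1 in each had an unadjusted p under 0.05. The part of oligodendrocytes in the Mir219a-2 differences was not tested.

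The mean level of the astrocyte markers was lower in the dark phase in trained and in untrained mice. Much of that fall came from 1 gene, Fabp7, so the mean does not stand for all 7. Over the 7 probe sets the mean was 9.88 in FC12 mice (9.79 to 9.91), against 10.04 in FC4 mice (9.97 to 10.09), with no overlap. It was 9.90 in CC12 mice (9.84 to 9.96), against 10.01 in CC4 mice (9.97 to 10.04) and 10.03 in CC30 mice (9.99 to 10.06). In FC12 against FC4, 7 of 7 lay below 0, with a median of -0.09, and 2 were called lower. These were Fabp7, a fatty acid binding protein (-0.74 ± 0.042, limma adjusted p = 1.71e-08), and Aqp4, a water channel (-0.13 ± 0.0257, adjusted p = 0.0118). Of 4 endothelial probe sets 1 was called lower there, Pecam1 (-0.23 ± 0.0602), and 1 higher, Slco1a4 (0.19 ± 0.0419). In CC12 Fabp7 alone of the 7 was called lower, with -0.66 ± 0.0457 against CC30 and -0.62 ± 0.037 against CC4. There 5 of 7 lay below 0 in each comparison, and the medians were small, -0.04 against CC30 and -0.03 against CC4. The part of these cell types in the differences of Mir219a-2, Mir128-2 and Mir9-2 was not tested.

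Other probe sets with 1 gene symbol followed single members across the 72 arrays. By Pearson's r over all mice, which share groups and the subtracted component, Mir128-2 was most like Cspg5 (0.705), Zfp46 (0.698) and 9430053O09Rik (0.684), and Mir219a-2 like 2900052L18Rik (0.703), Cd180 (0.652) and Zbtb22 (0.636). Mir9-2 was most like Zscan25 (0.671), Guf1 (0.662) and Nemp2 (0.645), and Mir138-2 like Garem1 (0.639), Mrpl10 (0.628) and Filip1 (0.614). Mir497 came nearest to Fnbp4 (0.579), Rabl3 (0.574) and Cwc27 (0.553), and Mir181c to Pdzrn3 (0.575), Mef2c (0.533) and Zdhhc4 (0.522). Likeness was weaker for Mir219a-1, with Vnn3 (0.54), Ly6g6e (0.492) and Cyp2c29 (0.478), for Mir9-1, with Mdga2 (0.516), 9530091C08Rik (0.51) and Slc25a28 (0.502), and for Mir488, with Shank2 (0.453), Tnks1bp1 (0.447) and Unkl (0.439). None of the 9 was among the 3 probe sets most like another.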

How the data were processed

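Total RNA from the hippocampi of single mice, extracted on the same day, was labelled from 3 µg and hybridised to Affymetrix whole-transcript arrays on a single plate. The deposited values are log2 signals that the authors summarised with RMA (background correction, quantile normalization between arrays, mean of 2 scans), with 0 missing values. Here the first principal component was subtracted after the study's methods, and 13 pairs of groups were fitted with limma 3.58.1 in R 4.3.3, each on its own 18 arrays. The study standardized its values first and gives its first component a larger share of the variance than found here, so the 2 subtractions may differ. The study ranked t-statistics by local false discovery rates, which were run as an alternative. limma was first tested on simulated data. Python 3.11.15 with scipy 1.17.1, biopython 1.88 and matplotlib 3.10.9 gave alignments, summaries and figures. Fold changes on quantile-normalized arrays are relative to all probe sets, and the number of arrays limits their precision.

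Groups came from the sample labels. Members were the probe sets annotated to exactly 1 symbol equal to a member. Named besides them were the list members with the largest rise and fall past the threshold, further list members and other microRNAs picked after their values were seen, and the 3 probe sets most like each member. Members, lists and tests were chosen with earlier results of these data known. The array files name no genome build, so positions are those of the RefSeq table alone. The labels do not say whether equal replicate numbers mark the same experiment, so mice were not paired in the main fits.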

Additional observations from a re-analysis of the deposited data

Results flagged for a closer look

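In 3 of 72 combinations of member and group a mouse stood apart from the other 8 by Dixon's test, which chance does in about 1 of 20 groups. Mir497 was 5.482 in RT30 replicate 9, above the rest of that group. Mir181c was 6.994 in CC30 replicate 1, above its group, and 6.485 in FC4 replicate 8, below its group.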

How the results depend on the processing

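In the 3 tested comparisons, the side of the threshold held for single members in 209 of 216 combinations of member, comparison and alternative. Most of these were never called. Of the 32 combinations of a member called in the main fit, 6 lost the call, and 1 call was gained. In the other 10 comparisons the side held in 673 of 720, with 35 of 152 calls lost and 12 gained. No called member changed its direction under any of the 8 alternatives. The number of members called moved by over 1.5 times in 14 of 104 combinations, and the cause was not tested. In FC30 against CC30 (3 called) it was 1 with the methods' t-test after Benjamini-Hochberg adjustment, 0 with its local false discovery rates and 0 without the arrays that stood apart. In RT30 against CC30 (6) it was 3 with the replicate block and 3 without those arrays. In RT30 against FC24 (2) it was 0 with the first 2 components subtracted, 1 with all 8 groups in one fit, and 0 with the methods' t-test, with the replicate block or without those arrays. In FC12 against FC4 (3) it was 0 with local false discovery rates and 1 with the replicate block, and in FC12 against FC24 (1) it was 0 and 2. Subtracting no component or leaving out the dimmest 25% of probe sets moved none of these counts by that much.

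Over all probe sets, 1500 were called in FC12 against FC4, 380 with local false discovery rates and 927 with the block, and 1136 in FC12 against FC24, 723 with the block. FC30 gave 91 and 43 with the block, RT30 99, and 149 (all groups in one fit), 251 (local false discovery rates) and 47 (block). RT30 against FC24 gave 54, and 155 with local false discovery rates. CC12 against CC30 gave 1243, and 656 (local false discovery rates), 705 (block) and 822 (without the arrays apart). CC12 against CC4 gave 1782, and 2862 (2 components) and 2810 (all groups in one fit). CC4 against CC30 gave 26, and 47, 108, 186 and 0, and FC24 against FC4 40, and 62, 174 and 9, with 2 components, all groups in one fit (CC4 against CC30 alone), local false discovery rates and the block. FC4 against CC4 gave 0, and 2 with either of 2 components or all groups in one fit, and FC24 against CC30 0, and 1 with all groups in one fit.

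Same-numbered mice of FC12 and FC4 deviated together with correlations from -0.0991 to 0.106, over 0.1 in 1 of 9 pairs, and 2 of 9 mice correlated best with their own number. The labels do not say whether equal numbers mark the same experiment, and these correlations cannot settle it. With the block the log2 fold changes of Mir219a-2 and Mir9-2 in FC12 against FC4 stayed the same, but their calls were lost. Signals of Mir488 and Mir219a-1 exceeded those of only 26.1% and 30.0% of all probe sets. Detection above background was not analysed here.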
